A study of Rattus norvegicus with 52 samples.

Results

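Kidney transcripts of ET3x2 rats were set against those of S rats after 24 hours on a salty diet. S is Dahl SS/Jr, an inbred rat strain whose blood pressure rises with dietary salt. ET3x2 is a congenic strain that carries a chromosome segment from a salt-resistant strain on the S background, so both groups share the S genome outside that segment. The ET3x2 high salt group held 4 rats and the S high salt group 5, 9 of the 26 rats of the series, and their 18 arrays are those among 52 that the labels give to these strains on high salt, with both chips of a rat matched by its animal number. All 9 were males of 40 to 42 days. They were weaned at 30 days onto a diet with 0.4% NaCl and moved to 4% NaCl at 39 to 41 days of age. RNA of the left kidney of each rat was measured singly on an Affymetrix RAE230A chip and an RAE230B chip. For comparison the text uses 4 ET3x2 and 5 S rats kept on 0.4% NaCl, and 4 rats of the second congenic strain, ET3x1, on 4% NaCl. The labels give no ends for the congenic segments, no litters and no batches.

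The kidney sets long-term blood pressure by matching salt excretion to salt intake. Filtration takes place in the glomerulus, where podocytes wrap capillaries. The proximal tubule then recovers most of the filtered salt, sugar and protein, and the thick ascending limb and the distal nephron adjust the remainder under hormones such as angiotensin and aldosterone. In S rats on salt over weeks, hypertension comes with glomerular injury, immune cell infiltration and interstitial matrix, whereas the animals here had eaten the salty diet for 1 day.

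Values are log2 levels of probe sets, the groups of short probes that stand for a transcript, and a difference is ET3x2 minus S, so that a positive one means higher in ET3x2. Errors of differences are standard errors of the limma fit over all 26 rats, and p-values, from limma too, were adjusted by the Benjamini-Hochberg method over the 15473 probe sets tested. A probe set with an adjusted p below 0.05 is called. The number of arrays limits the precision, and the median standard error of a difference was 0.09. The tissue label matched its markers: 6 of 7 kidney genes checked, from Umod of the thick ascending limb to Aqp2 of the collecting duct, lay above the 87th percentile of their chip, while Nphs1 of the podocyte lay below the brightness filter. Array medians lay between 7.48 and 7.52 on RAE230A and between 6.34 and 6.40 on RAE230B. In S rats 1 and 2 the bioD minus bioC difference, between a pair of spiked-in hybridisation controls, was 1.65 and 1.55 on RAE230A, against 2.42 to 2.85 in the 4 ET3x2 rats and 2.83 to 2.94 in the other 3 S rats. No quality measure differed between the groups in exact permutation tests (two-sided, adjusted p from 0.559 to 0.635 over 8 tests), and ET3x2 rat 4 lay farthest from its own group among the 9 rats on RAE230A, though not on RAE230B.

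Small differences in many genes, most of them reductions, set ET3x2 kidneys apart from S kidneys on high salt. The helicase gene Rtel1 was 1.82-fold higher and the endothelial semaphorin gene Sema3g 2.00-fold lower, with no overlap between rats. Of the leukocyte genes tested 8 of 27 rose, where 1.36% of all genes did, while 3 of 8 podocyte, 4 of 16 endothelial, 4 of 15 smooth muscle and 7 of 34 matrix genes fell, where 2.4% of all genes did. Without S rats 1 and 2, Rtel1 kept its call, and of these list members Sema3g alone did. No gene of the thick ascending limb, the collecting duct or the renin-angiotensin system passed the test on high salt among those listed for them. These lists are short beside the shares of all genes called, and on low salt members of each were called.

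In all, 658 probe sets were called, 4.25% of those tested, with 198 higher (1.28%) and 460 lower (2.97%) in ET3x2. The split was 331 higher and 519 lower after quantile normalization, 156 and 467 with array medians centred, and 519 and 800 with array weights. Over all probe sets tested 51.0% of differences were above 0, so the excess of reductions was among the called. Their median absolute difference was 0.38, 138 exceeded 0.5 and 5 exceeded 1. Those 5 were Ggt1 (1.12), Egr1 (-1.05) and 3 probe sets with no gene symbol (-1.17, -1.15 and -1.05). In 513 of the 658 (78.0%) the 4 ET3x2 rats and the 5 S rats did not overlap, against 10.5% of all probe sets tested. The called probe sets with 1 gene symbol stood for 450 genes, 149 higher and 301 lower, and 187 called probe sets had no symbol. Calls were made on both chips, 91 higher and 204 lower on RAE230A and 107 and 256 on RAE230B.

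The number of calls depended on single rats. It was 79 without ET3x2 rat 2, 112 without ET3x2 rat 4, 216 without S rat 1, 235 without S rat 2 and 293 without S rat 3, and between 522 and 930 without each of the other 4 rats. Without S rats 1 and 2 together, an alternative chosen after the data were seen, 25 probe sets were called. All 658 kept the sign of their difference in each of these fits, and the median difference without both S rats was 0.91 of its size. The 658 were chosen for their difference in these same rats, so a turn of sign was unlikely from the start. Across the 9 fits with 1 rat left out, 53 probe sets were called every time, 8 higher and 45 lower, and they stood for 33 genes. The 6 genes higher every time were Rtel1, Ccl5, the sulfotransferase gene Sult1a1 (0.45 ± 0.07), the lipid droplet gene Plin3 (0.43 ± 0.07), Lin37 (0.42 ± 0.07) and Cndp1 (0.40 ± 0.08), a dipeptidase. Among the 27 lower every time were Sema3g, Il6st, Spp1, Lrp2, Kdr, Podxl, Synpo, Oat, Pum2, Cpe, Ehd3, Rbm25 and Ncoa7, as well as Olfm1 (-0.48 ± 0.08), the large cadherin gene Fat1 (-0.53 ± 0.10) and the nonmuscle myosin gene Myh9 (-0.41 ± 0.08).

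**Figure D1:**
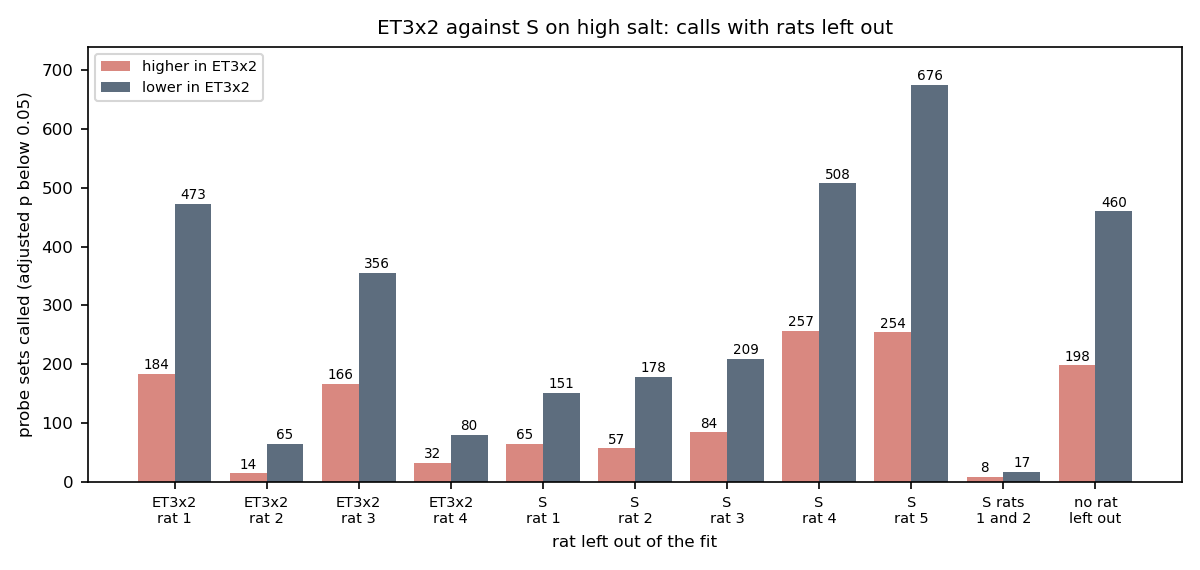
Number of probe sets called (y axis) for ET3x2 against S on high salt, higher (red) and lower (grey) in ET3x2, with the rat named on the x axis left out of the fit. Calls dropped to 14 higher and 65 lower without ET3x2 rat 2 and to 8 and 17 without S rats 1 and 2 together, against 198 and 460 with no rat left out.

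Rtel1, which encodes a DNA helicase that guards telomeres and lies near the end of chromosome 3 in the GRCr8 gene order, was the gene of smallest p. Its level was 8.08, 8.02, 8.01 and 7.94 in the ET3x2 rats, against 7.27, 7.16, 7.11, 7.12 and 7.08 in the S rats. Every ET3x2 rat lay above every S rat, and the difference was 0.87 ± 0.07 (adjusted p = 4.0e-08). A second tested probe set differed by 0.33 ± 0.08 (adjusted p = 0.0278), and another, below the brightness filter, by 0.34 ± 0.08 (adjusted p = 0.0186 with no filter).

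Ptpa, which encodes an activator of protein phosphatase 2A, was at 7.82, 7.45, 7.74 and 7.61 in ET3x2 rats, against 6.77, 6.41, 5.97, 7.20 and 7.17 in S rats (0.95 ± 0.22, adjusted p = 0.0159). The groups did not overlap, but the S rats spread widely, and the other probe set of Ptpa differed by 0.05. Prlr, the prolactin receptor gene, was at 9.47, 9.81, 9.32 and 9.11 in ET3x2 rats, against 8.65, 8.53, 8.85, 8.72 and 8.84 in S rats (0.71 ± 0.18, adjusted p = 0.0264). Every ET3x2 rat lay above every S rat, while the other probe sets of Prlr differed by 0.001 and 0.09. Psma7, for a subunit of the proteasome core, was at 8.05, 8.13, 8.22 and 7.93 in ET3x2 rats, against 7.48, 7.36, 7.79, 7.51 and 7.19 in S rats (0.62 ± 0.13, adjusted p = 0.0118). This too was 1 probe set, and the brighter one on RAE230A differed by 0.05.

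Transporters and immune genes followed. Slc22a2, the organic cation transporter of the proximal tubule's blood side, was at 10.72, 10.75, 10.43 and 10.63 in ET3x2 rats, against 10.21, 10.03, 10.11, 10.34 and 10.05 in S rats (0.48 ± 0.10, adjusted p = 0.0130). Slc51a, for a subunit of a bile acid and steroid transporter, differed by 0.49 ± 0.14, just past the threshold (adjusted p = 0.0495). The cadherin gene Cdh2 (0.51 ± 0.12) and the globin gene Hbq1 (0.51 ± 0.11) were higher, and so was Fam180a (0.47 ± 0.10). Summed erythroid signal, given with the erythroid list, was also higher in most ET3x2 rats, and its part in the value of Hbq1 was not tested. For Cdh2 the other probe set differed by -0.29, the opposite way, without a call. Ubd, for a ubiquitin-like protein induced by interferon, was at 8.86, 9.42, 8.96 and 8.98 in ET3x2 rats, against 8.57, 8.64, 8.50, 8.61 and 8.52 in S rats (0.49 ± 0.13, adjusted p = 0.0329). The 5 S rats lay within 0.15 of each other and below all 4 ET3x2 rats.

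Some of these calls rested on 1 or more rats. Ptpa lost its call without ET3x2 rat 4 (0.97, adjusted p = 0.0528), and Psma7, Fam180a and Slc22a2 without ET3x2 rat 2 (0.60, 0.44 and 0.44). Hbq1 lost it without ET3x2 rat 2 or 4 (0.47 and 0.46), and Prlr without ET3x2 rat 2 or S rat 1 or 2 (0.58 to 0.69). Cdh2 and Ubd lost theirs without ET3x2 rat 2 or 4 or S rat 1, 2 or 3 (0.45 to 0.53 and 0.37 to 0.51), and Slc51a without any of the 4 ET3x2 rats or S rat 1, 2 or 3 (0.34 to 0.56).

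Among higher genes whose rats overlapped, Ggt1 had the largest difference. It encodes gamma-glutamyl transferase, a brush border enzyme of glutathione breakdown. Its level was 12.69, 12.82, 12.68 and 12.79 in ET3x2 rats, against 10.47, 10.24, 12.08, 12.77 and 12.58 in S rats (1.12 ± 0.32, adjusted p = 0.0459). The S rats fell into a low pair, rats 1 and 2, which are also the S rats of low bioD minus bioC, and 3 rats near or within the ET3x2 range. Without both, Ggt1 differed by 0.27. Its call ended without any of the 4 ET3x2 rats or S rat 1, 2 or 3 (0.77 to 1.23). Klk1b3, a kallikrein gene, differed by 0.57 ± 0.13 and lost its call without ET3x2 rat 2 or 4 (0.47 and 0.51), and Tprn differed by 0.52 ± 0.13 and lost it without ET3x2 rat 2 or 4 or S rat 1, 2 or 3 (0.41 to 0.52). Ighl2, an immunoglobulin gene, was at 7.68, 9.08, 7.77 and 8.36 in ET3x2 rats, against 7.62, 7.56, 7.78, 7.71 and 7.74 in S rats (0.54 ± 0.15), so that ET3x2 rats 2 and 4 carried the difference, and it was 0.26 without rat 2. Its call also ended without ET3x2 rat 4 or S rat 1, 2, 3 or 4 (0.26 to 0.56 over these and rat 2).

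**Figure D2:**
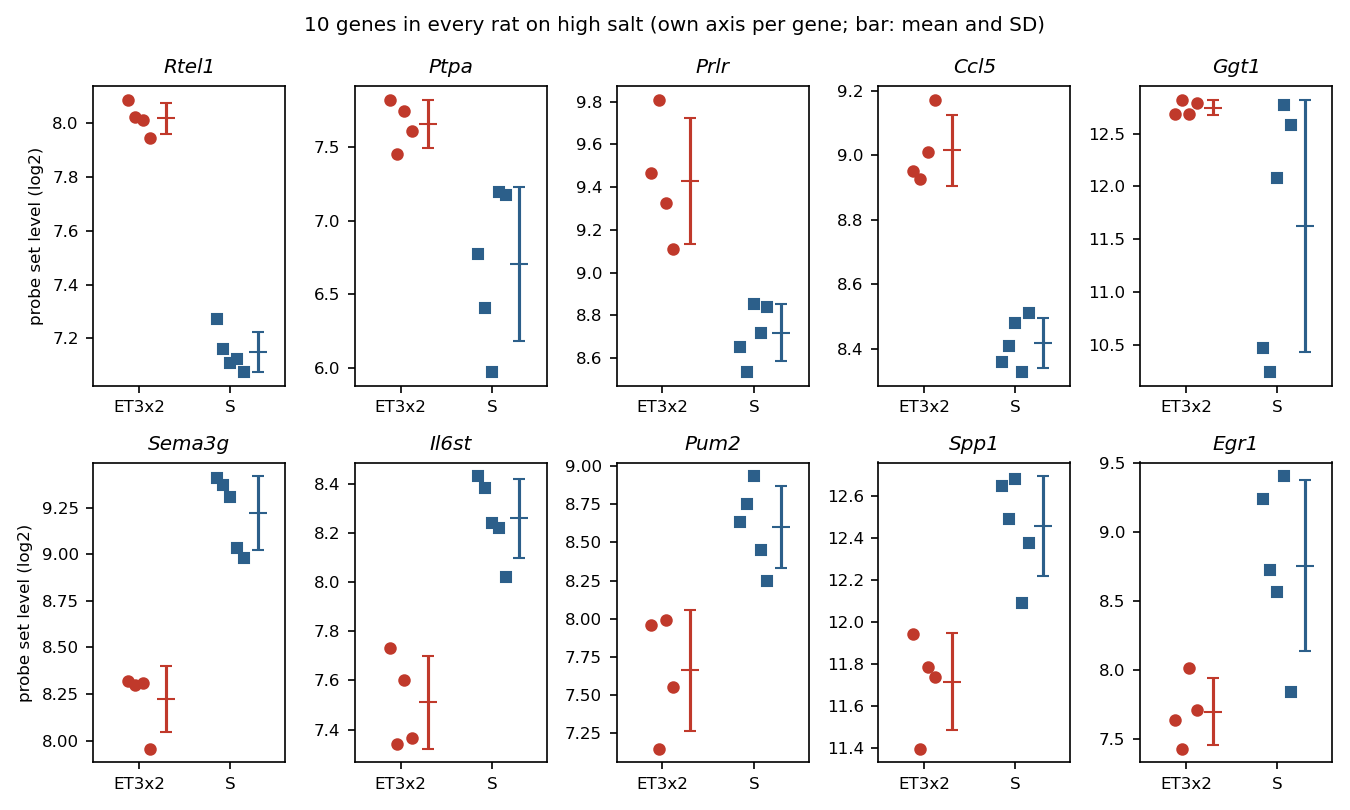
Level of 10 genes (log2, own axis per gene) in each ET3x2 rat (red circles, left) and each S rat (blue squares, right) on high salt, with mean and SD beside the points (n = 4 and 5). The rats do not overlap in 8 of the 10 genes by the rule that named those genes, and Ggt1 and Egr1 were named as overlapping. In Ggt1 S rats 1 and 2, at 10.47 and 10.24, lie apart from the other S rats, and in Egr1 1 S rat, at 7.84, lies within the ET3x2 range.

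The gene that fell furthest without overlap was Sema3g, for a secreted semaphorin made by endothelium. It was at 8.32, 8.30, 8.31 and 7.96 in ET3x2 rats, against 9.41, 9.37, 9.31, 9.04 and 8.98 in S rats (-0.998 ± 0.12, adjusted p = 2.8e-05). Its second probe set differed by 0.14, the opposite way, without a call. Il6st encodes gp130, the signalling chain shared by receptors of the interleukin-6 family. It was at 7.73, 7.34, 7.60 and 7.36 in ET3x2 rats, against 8.43, 8.39, 8.24, 8.22 and 8.02 in S rats (-0.75 ± 0.12, adjusted p = 0.00159). A pair of its other probe sets was called the same way (-0.38 and -0.39), and the remaining one differed by -0.32 (adjusted p = 0.188). Spp1, for osteopontin, a matrix protein of injured tubules, was at 11.94, 11.40, 11.78 and 11.74 in ET3x2 rats, against 12.64, 12.49, 12.68, 12.09 and 12.37 in S rats (-0.74 ± 0.13, adjusted p = 0.00296). Cpe, which trims peptide hormones, differed by -0.69 ± 0.13 and Ncoa7 by -0.68 ± 0.12.

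Pum2, for a protein that binds and represses messenger RNAs, was at 7.96, 7.15, 7.99 and 7.55 in ET3x2 rats, against 8.63, 8.75, 8.93, 8.45 and 8.24 in S rats (-0.94 ± 0.18, adjusted p = 0.00718). The RNA helicase gene Ddx3x was at 6.57, 5.47, 6.47 and 6.60 in ET3x2 rats, against 6.94, 6.91, 7.36, 7.03 and 6.85 in S rats (-0.74 ± 0.20, adjusted p = 0.0384). ET3x2 rat 2 was the lowest of its group in both. The translation initiation gene Eif4g2 differed by -0.80 ± 0.23, Rc3h2, whose product marks messenger RNAs for decay, by -0.78 ± 0.18, and the ubiquitin ligase gene Ube3a by -0.81 ± 0.22. Tpd52 differed by -0.69 ± 0.15. Wac differed by -0.69 ± 0.15 too, but the pseudogene Wac-ps1 has a probe set of its own, called at -0.61. Signal of the pair may be shared, which was not tested, so the value of Wac is uncertain.

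Other probe sets of these genes differed less or the opposite way. Those of Pum2 differed by -0.21 and -0.16, those of Eif4g2 by -0.12 and -0.13 and those of Ddx3x by -0.03 and -0.45, none called. For Ube3a one differed by 0.24 and another by -0.25, and for Tpd52 the other differed by 0.18. The rats decided several calls. Tpd52 lost its call without ET3x2 rat 2 (-0.59), Rc3h2 and Wac without ET3x2 rat 2 or 4 (-0.66 to -0.57 and -0.65 to -0.57), and Ddx3x and Eif4g2 without ET3x2 rat 2 or 4 or S rat 1, 2 or 3 (-0.85 to -0.47 and -0.89 to -0.53). Without ET3x2 rat 2 itself the differences of Ddx3x and Eif4g2 were -0.47 and -0.53. Ube3a lost its call without any ET3x2 rat or S rat 1, 2 or 3 (-0.85 to -0.72).

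Whether the strains differed without the salty diet was asked with the 4 ET3x2 and 5 S rats on 0.4% NaCl, which are other animals. Most differences had the same sign: 635 of the 658 probe sets called on high salt (96.5%) did on low salt, and 295 were called there in the same direction, 83 higher and 212 lower. No probe set was called in opposite directions. Over all probe sets tested the differences on the diets were correlated too (Pearson's r = 0.59), and their share of equal sign was not counted. Those 295 are 44.8% of the calls on high salt and 10.5% of the 2817 calls on low salt, where 18.2% of probe sets were called. The differences of the 658 were smaller on low salt, with a median ratio of low to high salt of 0.65, in a set chosen for its difference on high salt. Calls on low salt numbered 1345 without ET3x2 low salt rat 1 and 1773 without ET3x2 low salt rat 2, against 1944 to 3907 without each other rat. Rtel1 differed by 1.02 ± 0.07 on low salt, Sema3g by -0.49 ± 0.12, Cpe by -0.74 ± 0.13, Il6st by -0.53 ± 0.12 and Ccl5 by 0.53 ± 0.12, and all 5 were called on both diets. For Il6st the probe set that differed by -0.32 on high salt was called the opposite way on low salt (0.61 ± 0.14, adjusted p = 0.00474), while the other 3 were called lower on both. Ggt1 (0.21 ± 0.32), Ptpa (0.24 ± 0.22), Psma7 (0.08 ± 0.13), Egr1 (-0.01 ± 0.26) and Ube3a (-0.20 ± 0.22) were not called on low salt, but in none of them did the difference between diets itself pass (adjusted p from 0.335 to 0.571).

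**Figure D3:**
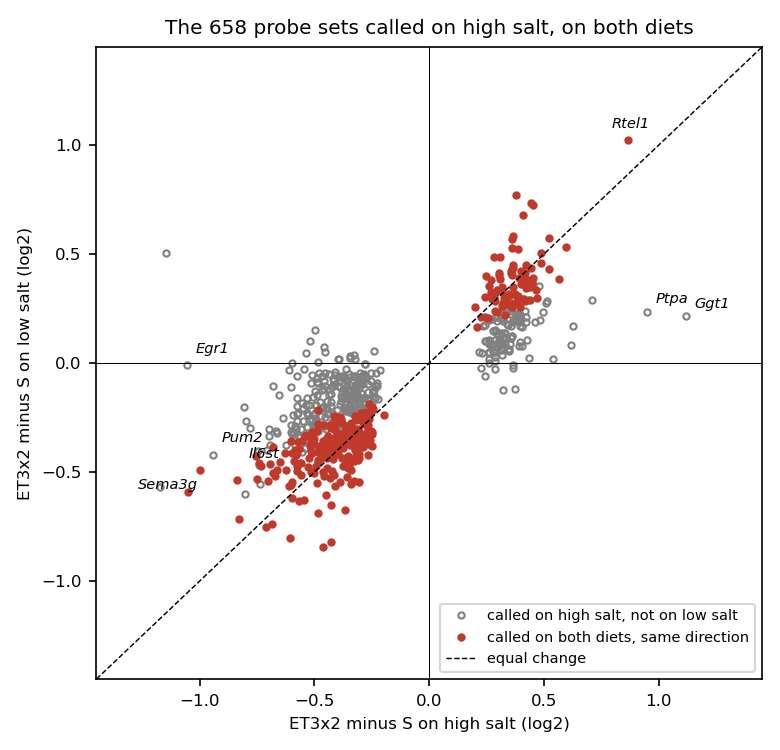
Difference between ET3x2 and S on low salt (y axis, log2) against that on high salt (x axis, log2) for the 658 probe sets called on high salt. Filled red points (295) were called on both diets in the same direction, open grey points were not called on low salt, and the dashed line marks equal change. Most points lie between the dashed line and 0 on the y axis, with Rtel1 (0.87 and 1.02) among those beyond it.

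The test of the difference itself, the strain difference on high minus that on low salt, called 3 probe sets (0.0194%), and 1390 had an unadjusted p below 0.05. Tns1, for the focal adhesion protein tensin, was at 9.71, 9.59, 9.91 and 9.61 in ET3x2 rats on high salt, against 9.10, 9.45, 9.61, 9.75 and 9.67 in S rats (0.19 ± 0.14). The rats overlapped on high salt, while on low salt ET3x2 was higher by 1.33 ± 0.14, which gave a difference between diets of -1.14 (adjusted p = 0.0493). Igf1r, the receptor gene of insulin-like growth factor 1, differed by -0.28 ± 0.10 on high and 0.49 ± 0.10 on low salt (between diets -0.77, adjusted p = 0.0497), and on high salt its rats did not overlap. The other probe set of Igf1r differed by -0.18 on high and -0.09 on low salt, between diets by -0.09 (adjusted p = 0.864), and the other 3 of Tns1 differed between diets by -0.16 to 0.14, none called. Myh1, a skeletal muscle myosin gene measured by a probe set that may read related myosins, differed by 0.01 ± 0.09 on high and -0.73 ± 0.09 on low salt (between diets 0.74, adjusted p = 0.0493). The other probe sets of Myh1 differed between diets by 0.43 to 0.55, none called. All 3 lay just inside the threshold, and with each of the 18 rats left out in turn the number of calls ranged from 0 to 44, being 44 without ET3x2 high salt rat 4, 43 without ET3x2 low salt rat 3, 20 without S low salt rat 3, 3 without S high salt rat 1 or S low salt rat 5 and 0 without any of the other 13.

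The second congenic strain tells which differences set ET3x2 apart from both. Against ET3x1 on high salt 1427 probe sets were called (9.22%), 849 higher and 578 lower in ET3x2. With array medians centred 576 were higher and 710 lower, so the balance turned with the scaling. The count was 83 with bioD minus bioC as a covariate and 273 with the Gapdh ratio, measures in which the strains stood apart on RAE230A: bioD minus bioC was 2.42 to 2.85 in ET3x2 rats, against 2.95 to 3.29 in ET3x1 rats, and the Gapdh ratio 0.65 to 0.88, against 0.56 to 0.61. Their part in the calls cannot be told apart from that of strain. The count was 587 without ET3x1 rat 3, 655 without ET3x2 rat 2, 844 without ET3x2 rat 4, 940 without ET3x2 rat 3, and 954 to 1359 without each other rat. Of the 658 calls against S, 110 were also called against ET3x1 in the same direction, 27 higher and 83 lower, and 1 in the opposite direction. Both comparisons use the same ET3x2 rats. Prlr averaged 9.43 ± 0.29 in ET3x2 (SD, n = 4), against 8.65 ± 0.24 in ET3x1 (n = 4) and 8.72 ± 0.13 in S (n = 5). ET3x2 was also the highest strain for Psma7, at 8.08 ± 0.13 in ET3x2, against 7.61 ± 0.31 in ET3x1 and 7.47 ± 0.22 in S.

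Med1, a subunit of the Mediator complex of transcription, differed by 0.57 from ET3x1 and by 0.41 from S, Mllt10 by 0.51 and 0.44, Fem1a by 0.43 and 0.28 and L3mbtl3 by 0.42 and 0.36. Other probe sets of Med1 and Mllt10 differed from S by -0.06 to -0.32, the opposite way, without a call. On the lower side Pum2 averaged 7.66 ± 0.40 in ET3x2 (SD, n = 4), against 8.59 ± 0.15 in ET3x1 (n = 4) and 8.60 ± 0.27 in S (n = 5). Ddx3x differed by -1.15 from ET3x1 and by -0.74 from S, Eif4g2 by -0.99 and -0.80, Ube3a by -0.86 and -0.81, Rdx, which links actin to the cell membrane, by -0.84 and -0.67, and the tropomyosin gene Tpm4 by -0.81 and -0.58. A second probe set of Tpm4 was called the same way against S (-0.30). Of these 12 genes Med1, Fem1a and Tpm4 were called against ET3x1 with bioD minus bioC as a covariate, and Mllt10, Ddx3x, Pum2 and Tpm4 with the Gapdh ratio. Against ET3x1 Psma7 lost its call without ET3x2 rat 1, 2 or 3 or ET3x1 rat 3 or 4 (0.34 to 0.49), Ube3a without ET3x2 rat 2 or 4 or ET3x1 rat 2 or 3 (-0.86 to -0.79), Prlr and Eif4g2 without ET3x2 rat 2 (0.65 and -0.72) and L3mbtl3 without ET3x1 rat 3 (0.37). Against S, Mllt10 lost its call without ET3x2 rat 2 or S rat 1 (0.41 and 0.39), Tpm4 without ET3x2 rat 2 or 4 or S rat 1 (-0.58 to -0.43), Rdx without ET3x2 rat 2 or 4 or S rat 1, 2 or 3 (-0.71 to -0.46), L3mbtl3 without ET3x2 rat 2 or 4 or S rat 1, 2 or 4 (0.31 to 0.35), Med1 without ET3x2 rat 2 or 4 or S rat 1, 2 or 5 (0.29 to 0.44) and Fem1a without ET3x2 rat 2, 3 or 4 or S rat 1, 2, 4 or 5 (0.25 to 0.30).

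Other genes differed from S on average in both congenic strains alike. On high salt Sema3g averaged 8.22 ± 0.18 in ET3x2 and 8.41 ± 0.18 in ET3x1, against 9.22 ± 0.20 in S, and Il6st 7.51 ± 0.19 and 7.58 ± 0.08, against 8.26 ± 0.16. Egr1 averaged 7.70 ± 0.24 in ET3x2 and 7.76 ± 0.27 in ET3x1, against 8.76 ± 0.62 in S, and Ggt1 12.74 ± 0.07 and 12.69 ± 0.01, against 11.63 ± 1.19. The 5 S rats are the same in both comparisons. In Egr1 and Ggt1 they overlapped the ET3x2 rats, and without S rats 1 and 2 Ggt1 differed between ET3x2 and S by 0.27, not called. In these 4 genes the congenic strains differed from each other by -0.19 ± 0.12, -0.07 ± 0.13, -0.06 ± 0.28 and 0.05 ± 0.34, none called.

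Gene lists were read with the brightest tested probe set of each gene, by which 8825 genes had a median difference of 0.01 and 1.36% were called higher and 2.4% lower. Leukocyte genes were the list with most members higher. Of 27 tested 8 rose and 0 fell, 23 of the 27 were above 0, and the median was 0.26. On low salt 15 rose, with a median of 0.33, where 12.9% of all genes rose and 9.29% fell and the median of all was 0.04. In bulk tissue more cells of a type and more RNA per cell cannot be told apart.

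Ccl5, a chemokine gene of T and NK cells, was at 8.95, 8.93, 9.01 and 9.17 in ET3x2 rats, against 8.36, 8.41, 8.48, 8.33 and 8.51 in S rats (0.60 ± 0.12, adjusted p = 0.00747). C1qa, a complement chain made by macrophages, was at 9.13, 9.32, 9.03 and 9.22 in ET3x2 rats, against 8.63, 8.74, 8.45, 8.82 and 8.61 in S rats (0.52 ± 0.13, adjusted p = 0.0247). Neither overlapped. Fcer1g (0.39 ± 0.10) and Tyrobp (0.31 ± 0.07), signalling adaptors of myeloid and NK cells, rose, as did the Fc receptor gene Fcgr3a (0.37 ± 0.11), the T cell kinase gene Lck (0.36 ± 0.09), the cytotoxic granule gene Nkg7 (0.34 ± 0.09) and RT1-DMb (0.30 ± 0.08), which loads peptide onto class II molecules. Summed over the 41 leukocyte genes on the chips, of which 27 passed the filter, log2 signal was 14.50 to 14.59 in ET3x2 rats, against 14.23 to 14.39 in S rats, with no overlap. Ptprc, Cd4, Itgam and Adgre1, general markers of leukocytes, T cells and macrophages, lay below the filter.

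The count of 8 was 1 without ET3x2 rat 2, ET3x2 rat 4 or S rat 1, 3 without S rat 2, 4 without S rat 3 and 0 without S rats 1 and 2, while the median stayed between 0.22 and 0.30 in these fits. Ccl5 alone kept its call with any 1 rat left out (0.55 to 0.63). C1qa lost it without ET3x2 rat 2 or 4 or S rat 1 or 3 (0.47 to 0.52), Fcer1g without ET3x2 rat 2 or 4 or S rat 1 or 2 (0.34 to 0.40) and Fcgr3a without any rat but S rat 4 (0.33 to 0.40).

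Marker genes of the glomerulus and of vessels went the other way, and the part that cell makeup has in any of these values was not tested. All 8 podocyte genes tested were below 0, with a median of -0.30, and 3 fell and 0 rose. Podxl, for the surface sialomucin podocalyxin, was at 9.25, 9.06, 9.25 and 9.12 in ET3x2 rats, against 9.82, 9.66, 9.71, 9.56 and 9.42 in S rats (-0.46 ± 0.08, adjusted p = 0.00336), with no overlap. Synpo, for the actin organiser synaptopodin, was at 8.74, 8.45, 8.47 and 8.45 in ET3x2 rats, against 9.03, 8.91, 9.14, 8.88 and 8.73 in S rats (-0.41 ± 0.08, adjusted p = 0.00914). Only ET3x2 rat 1 reached the S range. Dimmer probe sets below the filter did not all go the same way. That of Synpo averaged 7.39 in ET3x2 rats, against 7.23 in S rats. Those of Podxl averaged 6.14 against 6.01 and 5.18 against 5.24. Dag1, for dystroglycan, differed by -0.32 ± 0.09 and lost its call without ET3x2 rat 2, 3 or 4 or S rat 1, 2 or 3 (-0.34 to -0.27). The other members ranged from -0.31 (Ptpro) to -0.12 (Nes). Summed over 12 podocyte genes, log2 signal was 12.18 to 12.32 in ET3x2 rats, against 12.42 to 12.68 in S rats, and Nphs1 and Wt1 were among 4 below the filter. A lower sum was not particular to glomerulus and vessels. The 7 kidney genes used to check the tissue, tubule genes among them, summed to 14.67 to 14.84 in ET3x2 rats, against 14.92 to 15.01 in S rats.

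Of 16 endothelial genes 4 fell and 0 rose (median -0.15). Kdr, the main receptor of vascular endothelial growth factor, was at 9.32, 9.28, 9.58 and 9.07 in ET3x2 rats, against 10.04, 9.94, 9.88, 9.72 and 9.82 in S rats (-0.57 ± 0.10, adjusted p = 0.00385). Its ligand gene Vegfa (-0.35 ± 0.10) and the endothelial transcription factor gene Epas1 (-0.43 ± 0.10), both on the hypoxia list of 19, fell too. That list as a whole did not lean, with a median of -0.01, 9 members above 0 and 10 below. Ehd3, of membrane recycling, differed by -0.58 ± 0.11 and Vcam1, an adhesion molecule for leukocytes, by -0.51 ± 0.12. Sema3g, described above, is the fourth. Vcam1 lost its call without ET3x2 rat 2 or 4 or S rat 3 (-0.51 to -0.41), Epas1 without ET3x2 rat 4 (-0.33) and Vegfa without ET3x2 rat 2 or 4 or S rat 1, 2 or 3 (-0.34 to -0.26). Summed over 22 endothelial genes, log2 signal was 13.06 to 13.15 in ET3x2 rats, against 13.23 to 13.39 in S rats.

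Of 15 smooth muscle and pericyte genes 4 fell and 0 rose, with a median of -0.22 that was -0.11 when all tested probe sets of a gene were averaged. Flna, for filamin, differed by -0.49 ± 0.11, the adhesion gene Mcam by -0.42 ± 0.12, the myosin light chain kinase gene Mylk by -0.35 ± 0.10 and the smooth muscle myosin gene Myh11 by -0.30 ± 0.06. In Flna, Mylk and Myh11 the rats did not overlap. Flna lost its call without ET3x2 rat 4 (-0.43), Myh11 without ET3x2 rat 2 (-0.27), Mylk without ET3x2 rat 2 or 4 or S rat 1, 2 or 3 (-0.37 to -0.22) and Mcam without ET3x2 rat 1, 2 or 4 or S rat 1 or 2 (-0.45 to -0.29). Gucy1a1, for the receptor of nitric oxide in vessels and the 1 gene called of 7 on the endothelin and nitric oxide list, differed by -0.50 ± 0.12, and lost its call without ET3x2 rat 2 or 4 (-0.54 and -0.35).

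Matrix and fibrosis genes fell in the largest number, 7 of 34 with 0 higher and a median of -0.18. All 7 encode basement membrane proteins, a collagen of connective tissue or an enzyme that crosslinks collagen. Col4a2, a basement membrane collagen chain, was at 11.43, 11.32, 11.43 and 10.84 in ET3x2 rats, against 11.95, 11.84, 11.83, 11.65 and 11.72 in S rats (-0.54 ± 0.11, adjusted p = 0.00920). Its partner chain Col4a1 differed by -0.36 ± 0.10, the laminin chains Lamc1 and Lama5 by -0.48 ± 0.10 and -0.41 ± 0.09, and perlecan, from Hspg2, by -0.29 ± 0.08. Col6a3 was at 9.93, 9.78, 9.78 and 9.18 in ET3x2 rats, against 10.16, 10.20, 10.64, 10.02 and 10.12 in S rats (-0.56 ± 0.13), and the crosslinking enzyme Loxl2 differed by -0.39 ± 0.09. None of the 7 overlapped between groups, and neither did 78.0% of all called probe sets. ET3x2 rat 4 was the lowest rat in Col4a1, Col4a2, Col6a3, Hspg2, Lama5 and Lamc1, and without it no matrix gene was called, with Col4a2 at -0.41, Lamc1 at -0.40, Col6a3 at -0.40 and Lama5 at -0.37. The count was 4 without ET3x2 rat 2 or S rat 1 and 0 without S rats 1 and 2, where the median was -0.20.

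**Figure D4:**
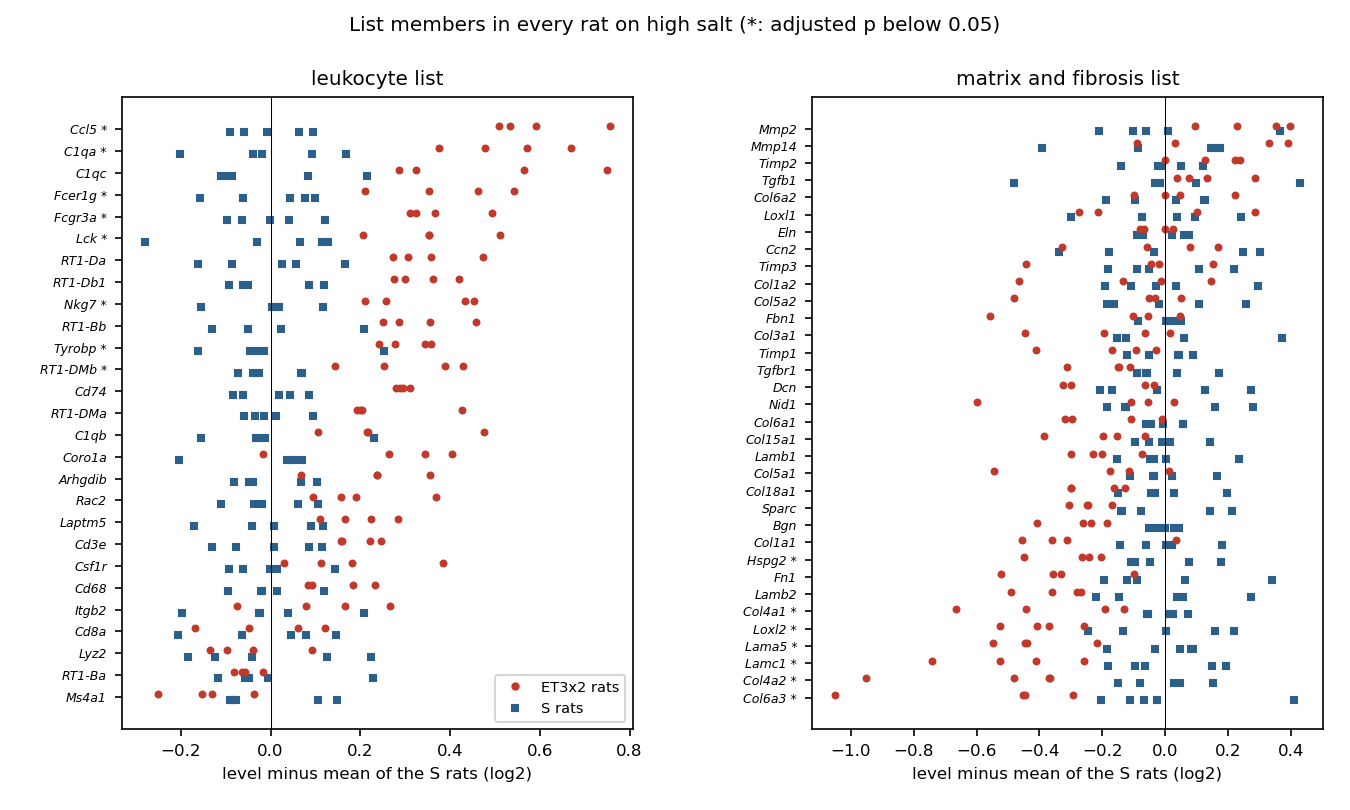
Level of each leukocyte (left) and matrix (right) gene in every ET3x2 rat (red circles) and S rat (blue squares) on high salt, as log2 level minus the mean of the 5 S rats. Asterisks mark genes called. Of 27 leukocyte genes 23 average above the S rats and of 34 matrix genes 29 average below them, and the ET3x2 rat farthest to the left in most called matrix genes is rat 4.

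In the tubule the uptake receptors of filtered protein were lower. Lrp2, for megalin, was at 11.97, 11.82, 11.99 and 11.50 in ET3x2 rats, against 12.32, 12.39, 12.38, 12.23 and 12.23 in S rats (-0.49 ± 0.08, adjusted p = 0.00210), and it differed by -0.55 on low salt. Its partner Cubn, for cubilin, was at 11.09, 11.08, 11.24 and 11.03 in ET3x2 rats, against 11.60, 11.57, 11.31, 11.59 and 11.37 in S rats (-0.38 ± 0.08, adjusted p = 0.0122). Neither overlapped, and Cubn lost its call without ET3x2 rat 2 or 4 (-0.37 and -0.35). With Slc22a2 these were the called members of 24 proximal tubule transport genes, whose median was -0.03. Oat, for ornithine aminotransferase, was the 1 gene called of 27 of gluconeogenesis and amino acid breakdown (-0.54 ± 0.10, adjusted p = 0.00411).

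Salt transport lists beyond the proximal tubule showed no call on high salt, where 1.36% of all genes rose and 2.4% fell. None of 18 thick ascending limb and distal convoluted tubule genes passed, with the thiazide-sensitive cotransporter gene Slc12a3 (-0.24 ± 0.10, adjusted p = 0.161) and the kinase gene Wnk1 (-0.19 ± 0.08, adjusted p = 0.164) nearest. None of 19 collecting duct and aldosterone response genes passed, nor any of 7 renin-angiotensin genes, with the renin receptor gene Atp6ap2 (-0.31 ± 0.14, adjusted p = 0.209) and the peptidase gene Enpep (-0.16 ± 0.08, adjusted p = 0.232) nearest. Sgk1, a kinase gene that aldosterone induces, was at 10.07, 10.24, 10.50 and 9.86 in ET3x2 rats, against 9.78, 9.60, 10.61, 10.44 and 10.31 in S rats (0.02 ± 0.18, adjusted p = 0.963), and without S rats 1 and 2, the lowest S rats, the difference was -0.28, still without a call. Agt, the angiotensinogen gene, was too dim to be tested and differed by 0.14 ± 0.12 with no filter (adjusted p = 0.535). Of 8 sodium pump and FXYD genes Fxyd5 alone was called (0.41 ± 0.10), a call lost without ET3x2 rat 1 or 2 or S rat 1 (0.33 to 0.38). On the osmolyte list of 8, none was called, with the chaperone gene Hspa4l (-0.26 ± 0.09, adjusted p = 0.0925) and the inositol transporter gene Slc5a3 (0.53 ± 0.20, adjusted p = 0.116) nearest. On low salt 5 of the 18 thick ascending limb and distal convoluted tubule genes fell and 0 rose. Of the 19 collecting duct and aldosterone response genes 2 rose and 2 fell there, and of the 7 renin-angiotensin genes 2 fell and 0 rose. The shares of all genes on low salt were 12.9% higher and 9.29% lower.

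Immediate early genes, which switch on within minutes of a stimulus, leaned lower. Of 19 tested 3 fell and 0 rose, 16 were below 0, and the median was -0.21, against -0.10 on low salt. Egr1, the transcription factor that typifies the class, was at 7.64, 7.43, 8.02 and 7.71 in ET3x2 rats, against 9.24, 8.72, 8.57, 9.40 and 7.84 in S rats (-1.05 ± 0.26, adjusted p = 0.0258). S rat 5 lay within the ET3x2 range and the other 4 S rats above it. Klf6, a zinc finger factor, was at 7.94, 8.05, 7.63 and 7.71 in ET3x2 rats, against 8.03, 8.11, 8.66, 8.31 and 8.26 in S rats (-0.44 ± 0.12, adjusted p = 0.0321), with 1 S rat inside the ET3x2 range. Dusp6, a phosphatase that turns off ERK, differed by -0.35 ± 0.10 (adjusted p = 0.0494). Egr1 lost its call without ET3x2 rat 2 or 4 or S rat 1 or 2 (-1.06 to -0.93), Klf6 without ET3x2 rat 2, 3 or 4 or S rat 3 (-0.52 to -0.35) and Dusp6 without any rat but ET3x2 rat 1 (-0.40 to -0.28).

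Many immediate early promoters hold the CArG box, the site of serum response factor. RefSeq promoters of GRCr8, from 250 bases before to 50 bases from the start site on, were found for 14 of the 19 genes and searched for the box, which is its own reverse complement as a pattern, so that both strands are covered. It occurred in 4 of the 14 (Egr1, Dusp5, Klf6 and Zfp36) and in 1.64% of the 33469 promoters of the table. The median difference of the 4 was -0.41 and that of the 10 without the box, among them the called gene Dusp6, was -0.21. The promoters of Egr1 and Klf6, called members that hold it, are shown with the boxes in capitals, 105 and 83 bases before the start site of Egr1 (chr18:26736828-26737127, plus strand) and 201 bases before that of Klf6 (chr17:69458429-69458728, minus strand).
Egr1: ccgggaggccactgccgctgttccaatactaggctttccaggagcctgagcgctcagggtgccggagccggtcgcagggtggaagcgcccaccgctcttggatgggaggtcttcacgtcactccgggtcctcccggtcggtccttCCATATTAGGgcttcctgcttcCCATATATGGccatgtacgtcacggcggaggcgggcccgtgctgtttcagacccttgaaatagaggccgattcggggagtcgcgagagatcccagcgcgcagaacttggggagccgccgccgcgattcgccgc
Klf6: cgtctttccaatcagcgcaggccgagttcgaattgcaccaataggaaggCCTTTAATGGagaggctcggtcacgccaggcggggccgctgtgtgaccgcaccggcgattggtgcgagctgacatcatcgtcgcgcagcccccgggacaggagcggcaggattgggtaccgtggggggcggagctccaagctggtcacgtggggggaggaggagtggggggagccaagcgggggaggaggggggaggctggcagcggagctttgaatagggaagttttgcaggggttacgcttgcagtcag
The boxes are matches of letters in the reference strain, and whether ET3x2 and S rats share them was not tested.

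Genes of RNA splicing leaned lower as a group. Of 42 tested 4 fell and 0 rose, 36 were below 0, and the median was -0.14, while 15 fell on low salt, where 9.29% of all genes did. Rbm25, for a splicing regulator, was at 8.27, 8.05, 8.06 and 7.88 in ET3x2 rats, against 8.56, 8.57, 8.36, 8.60 and 8.61 in S rats (-0.47 ± 0.09, adjusted p = 0.00829). Hnrnpf (-0.38 ± 0.10), Srsf5 (-0.38 ± 0.11) and Srsf2 (-0.29 ± 0.08) followed. The count was 1 without ET3x2 rat 2 or 4 or S rat 1, 2 or 3, that one being Rbm25, and 5 or 6 without each other rat. Of 15 clock genes the repressors Nr1d2 (-0.59 ± 0.12) and Per3 (-0.36 ± 0.10) fell, 13 were below 0 and the median was -0.12. Nr1d2 lost its call without ET3x2 rat 4 (-0.49) and Per3 without any ET3x2 rat or S rat 1 or 2 (-0.41 to -0.30).

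Among lists of defence and signalling, 3 of 32 antioxidant and glutathione genes rose, Ggt1 with the glutathione transferase genes Gstm1 (0.34 ± 0.10) and Gstt2 (0.32 ± 0.08), around a median of 0.01. Gstm1 lost its call without any 1 of the 9 rats (0.25 to 0.37) and Gstt2 without ET3x2 rat 2, 3 or 4 or S rat 1 or 3 (0.29 to 0.34). Of 11 kallikrein and prostaglandin genes the prostaglandin synthase genes Ptges2 (0.44 ± 0.09) and Ptgds (0.39 ± 0.11) rose, with a median of 0.01. Ptges2 lost its call without ET3x2 rat 2 (0.36) and Ptgds without any rat but S rat 4 (0.27 to 0.45). Of 16 tubular injury genes Spp1 and Vcam1 fell and the trefoil peptide gene Tff3 rose. Tff3 was at 13.20, 13.25, 13.01 and 13.24 in ET3x2 rats, against 12.76, 12.31, 12.99, 12.96 and 12.77 in S rats (0.42 ± 0.11, adjusted p = 0.0276), and it lost its call without ET3x2 rat 2 or 4 or S rat 1 or 2 (0.30 to 0.42).

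Energy and protein lists held few calls. None of 68 oxidative phosphorylation genes, 39 ribosomal protein genes, 25 fatty acid oxidation genes, 23 chaperone genes, 24 cell division genes or 12 arachidonic acid P450 genes passed, with medians from -0.05 to 0.08. Of 39 proteasome genes Psmd7 rose (0.29 ± 0.08) and of 21 cholesterol synthesis genes Sqle, an early enzyme of the sterol branch, fell (-0.44 ± 0.10). Psmd7 lost its call without ET3x2 rat 2 or 4 or S rat 2, 3 or 5 (0.25 to 0.31) and Sqle without ET3x2 rat 2 or 4 or S rat 1 or 2 (-0.42 to -0.40).

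Erythroid transcripts varied with single S rats. Alas2, the erythroid enzyme of heme synthesis, was at 10.82, 10.98, 10.40 and 11.28 in ET3x2 rats, against 10.44, 10.53, 8.66, 9.16 and 10.54 in S rats (1.00 ± 0.38, adjusted p = 0.122). S rats 3 and 4 were the lowest, also in Hba-a3 and Hbb. Of 6 erythroid genes tested Fech was called (0.50 ± 0.13, adjusted p = 0.0311), and it lost the call without ET3x2 rat 2 or 4 or S rat 1 or 3 (0.41 to 0.52). Summed over 9 erythroid genes, log2 signal was 14.44 to 14.77 in ET3x2 rats, against 13.47 to 14.47 in S rats. The defining markers of adrenal gland and brown or white fat that were checked, such as Cyp11b1, Adipoq and Ucp1, lay below the filter, and none of 4 fat, 2 adrenal and 3 absent-tissue genes that passed it was called.

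**Figure D5:**
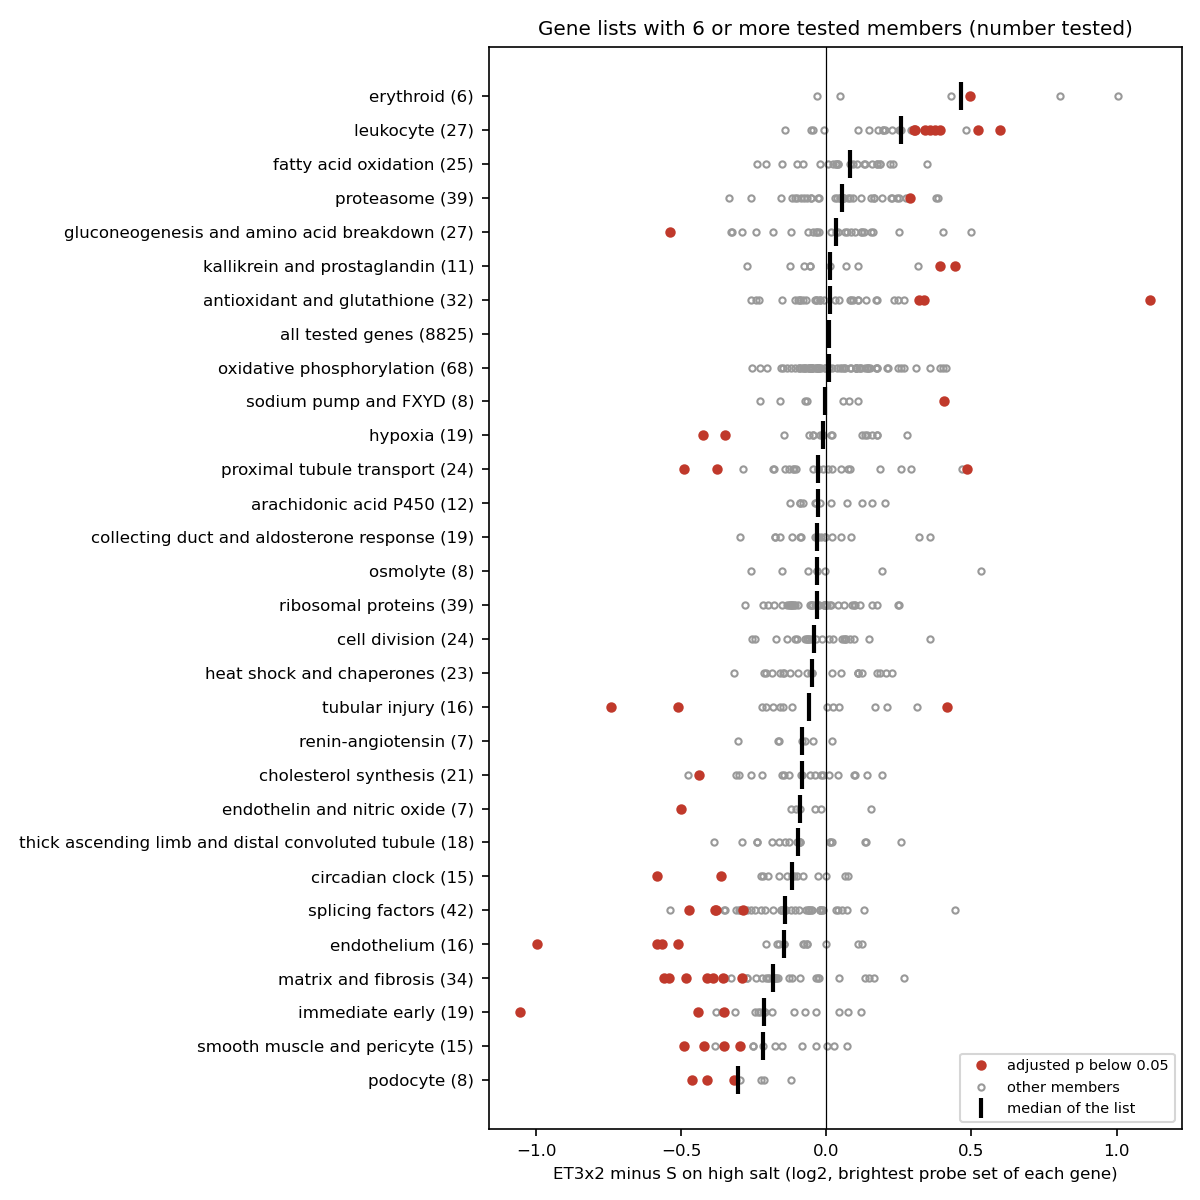
Difference between ET3x2 and S on high salt (x axis, log2) for each tested member of the gene lists with 6 or more members (rows, number tested in parentheses), by the brightest probe set. Red points were called, grey circles were not, and bars are medians. The medians of the podocyte (-0.30) and leukocyte (0.26) lists lie on opposite sides of that of all tested genes (0.01).

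Where the called genes lie was asked last. The series set out to find genes with altered activity within the ET3x2 segment, and Rtel1 lies among the last 60 of the 669 genes of chromosome 3 that were tested, in the gene order of GRCr8. Of those 60, 2 rose (Rtel1 and Ctsz, for the lysosomal protease cathepsin Z) and 3 fell (Zfp512b, Polr3k and Lama5), which is 3.33% and 5%, against 1.36% and 2.4% of all genes. By the probe set of smallest p Psma7 is also among them. The counts are small, Rtel1 itself is in the share that rose, and no label places these 60 genes within the segment. Zfp512b was at 7.65, 7.62, 7.66 and 7.70 in ET3x2 rats, against 8.42, 8.31, 8.09, 7.97 and 7.95 in S rats (-0.49 ± 0.11, adjusted p = 0.0143). Polr3k, for a subunit of RNA polymerase III, was at 9.04, 8.90, 9.10 and 9.06 in ET3x2 rats, against 9.55, 9.53, 9.46, 9.28 and 9.38 in S rats (-0.42 ± 0.10, adjusted p = 0.0247). None of these 5 called genes overlapped between groups, and neither did 78.0% of all called probe sets. Ctsz differed by 0.40 ± 0.11 (adjusted p = 0.0410). ET3x1 rats on high salt also differed from the same S rats, by 0.60 ± 0.07 in Rtel1 and -0.65 ± 0.11 in Zfp512b. Polr3k differed there by -0.61 ± 0.10 and Lama5 by -0.52 ± 0.09, and all these were called. Ctsz (0.24 ± 0.11) and Psma7 (0.14 ± 0.13) were not called in ET3x1 against S. Between the congenic strains Rtel1 was higher in ET3x2 by 0.26 ± 0.08 (limma, adjusted p = 0.0312). On low salt 13 of the 60 rose and 4 fell, against 12.9% and 9.29% of all genes, so the 4 lie below that share. Zfp512b lost its call without ET3x2 rat 2 (-0.48), Lama5 without ET3x2 rat 4 (-0.37), Polr3k without ET3x2 rat 2 or 4 or S rat 1, 2 or 3 (-0.43 to -0.37) and Ctsz without ET3x2 rat 2 or 4 or S rat 1, 2, 3 or 5 (0.34 to 0.43).

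Calls came from every chromosome with tested genes, from 2.28% of genes on chromosome 7 to 7.46% on chromosome 20, where 14 of 268 rose and 6 fell, against 13 and 16 of 669 on chromosome 3. Chromosome 20 carries the rat major histocompatibility complex, and the called genes on that chromosome include Ubd, RT1-DMb, Ggt1, Gstt2 and Tff3. Which of the called genes lie within the complex was not tested. Genes that fell had longer spans than genes that rose. The median genomic span was 10.6 kb for 120 genes higher and 45.7 kb for 210 lower, and 22.8 kb over all genes placed on the build. Across 8793 genes, which are not independent replicates, Spearman's correlation of difference with span was -0.26. The ratio of 3' to 5' Gapdh signal, a sign of RNA integrity, was 0.75 ± 0.11 in ET3x2 rats (SD, n = 4) and 0.81 ± 0.05 in S rats (SD, n = 5) on RAE230A (log2, exact permutation p = 0.27, two-sided). With it as a covariate 639 probe sets were called and 505 of the 658 were called again in the same direction, and with the bioD minus bioC difference 497 and 446.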

How the data were processed

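Kidney RNA of 26 rats was measured on RAE230A and RAE230B chips, 52 arrays in all. The values are log2 signals per probe set, deposited by the authors in a table per chip; how they were summarised and normalised is not given in the sources used here, and the log2 scale was read from their range. From these values 57 control probe sets per chip were removed, probe sets averaging below the chip median (7.51 and 6.38) were left out, and the 100 probe sets that the chips share were kept for RAE230A alone, which left 7933 and 7540. Each chip was fitted with limma 3.58.1 in R 4.3.3 over 6 groups with an intensity trend (20 residual degrees of freedom), and p-values were adjusted over both chips together. The pipeline was tested on simulated data. Symbols came from the platform annotation. A single symbol was given for 11110 of the 15473, several for 274 and no symbol for 4089, and 38 symbols had no match by gene identifier. GRCr8 served for gene order, spans and promoters alone.

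The comparisons were ET3x2 against S on high and on low salt, the difference between these, and ET3x2 against ET3x1 on high salt. ET3x1 against S on high salt was read for the called genes at the end of chromosome 3 alone. Genes named were the 12 largest called differences each way without overlap between rats, up to 4 each way that overlap and exceed the smallest of those 12, up to 6 each way called against both strains or between diets, up to 4 called members of a list (the nearest 2 where none was called), called genes among the last 60 of chromosome 3, and Rtel1, Sgk1 and Agt. The remaining called members of the leukocyte and matrix lists, the genes called with each rat left out, the erythroid genes and Wac-ps1 were named after their values were seen. A gene was named by its probe set of smallest p, and a list was read by brightest tested probe sets. The members and lists were chosen with earlier results of these data known. Where the labels do not tie rats to litters, p-values measure the spread between these rats. Alternatives changed the scaling, filter, trend, weights, rats in the fit, adjustment and covariates, or left out each rat in turn.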

Additional observations from a re-analysis of the deposited data

Results flagged for a closer look

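In 214 groups of 4 or 5 rats, over 107 probe sets, 15 had a rat standing apart by Dixon's criterion (7.01%), where chance gives about 1 in 20. Among ET3x2 rats on high salt, rat 2 was lowest in Eif4g2 (8.66), Ddx3x (5.47) and Tpd52 (6.68) and highest in Med1 (8.52) and Gstm1 (10.14). Rat 4 was lowest in Sema3g (7.96) and Epas1 (9.14) and highest in Slc51a (9.78), and rat 1 was highest in Synpo (8.74). Among S rats on high salt, rat 3 was highest in Nr3c1 (8.46) and Pck1 (13.13) and lowest in Rbm25 (8.36) and Cyp11a1 (7.34), rat 5 was lowest in Stip1 (8.96) and rat 1 highest in Ehd3 (7.81). The strain difference differed between diets, high minus low salt, by -1.14 in Tns1, 0.74 in Myh1 and -0.77 in Igf1r (limma, adjusted p = 0.0493, 0.0493 and 0.0497).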

How the results depend on the processing

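For ET3x2 against S on high salt, 658 probe sets were called, 326 among the brightest 25% and 1319 with array weights, and leaving out 1 rat gave 79 to 930. Without S rats 1 and 2, chosen after the data were seen, 25 were called. The other settings gave 497 to 959. On low salt 2817 were called, against 4728 with no filter, 1509 among the brightest 25%, 1542 with the Gapdh ratio and 1437 with bioD minus bioC as a covariate, and 1345 to 3907 with a rat left out. Between diets 3 were called, against 1 after quantile normalization, 0 with array medians centred, with the 18 ET3x2 and S rats alone, with the Gapdh ratio or with bioD minus bioC, 8 with no filter, 10 with the actin ratio, 416 with array weights and 0 to 44 with a rat left out. Against ET3x1 1427 were called, 849 higher, against 2144 with no filter, 646 among the brightest 25%, 2590 with array weights, 273 with the Gapdh ratio, 908 with the actin ratio, 83 with bioD minus bioC and 587 to 1359 with a rat left out. With array medians centred, 576 were higher and 710 lower. Over all gene lists 53 members were called, 14 to 56 with a rat left out and 2 without S rats 1 and 2. The cause of these changes was not tested. On high salt another probe set of the gene had the opposite sign for the called genes Cdh2 (-0.29), Sema3g (0.14), Ube3a (0.24), Tpd52 (0.18), Med1 (-0.0556), Mllt10 (-0.19, -0.32 and -0.0927) and Rdx (0.0355), and so had probe sets of Tns1 (-0.15 and -0.13) and Myh1 (-0.56 to -0.0064), which were not called there. Over the named genes' alternatives, 2112 kept direction and side of the threshold, 496 lost the call and 15 gained one. No paired analysis was possible because animal numbers do not pair rats across strains.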
